A study of Mus musculus with 6 samples.

Results

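Complement genes were examined in tumor-associated macrophages (TAMs) sorted from mouse melanomas that either kept or lacked the prostaglandin-producing cyclooxygenases. The 9 members are C1qa, C1qb, C1qc, C3, C4b, Cfb, Cfp, C3ar1 and C5ar1, which encode complement components and complement receptors. They were chosen by gene symbol, as the rows of the deposited count matrix that carry these names, and are 9 of its 39179 genes.

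TAMs came from C57BL/6 hosts that were 8 weeks old and had been injected with melanoma cells grown in culture. In the Ptgs-competent group (n = 3) the injected tumor cells were wild type for Ptgs1 and Ptgs2, the genes for cyclooxygenase 1 and cyclooxygenase 2. In the Ptgs-deficient group (n = 3) the tumor cells had been made deficient in both genes by CRISPR editing of a BRAF-driven melanoma line, and the sources used here do not say whether that line is 1 clone. The sorted macrophages carried the host genotype in both groups, so the counts of Ptgs1 and Ptgs2 in them do not check the labels. Per the study's methods, each sample was a pool of tumors from which live leukocytes (CD45+) positive for CD11b and F4/80 were sorted, leaving out cells with NK1.1, Ly6G or bright Ly6C. The comparison asks how loss of cyclooxygenases in tumor cells is accompanied by different gene expression in the macrophages around them. The p-values measure the spread between these pools.

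Complement is a cascade of plasma proteins that tags microbes, dying cells and immune complexes. C1q, assembled from repeated units of a C1qa, a C1qb and a C1qc chain, starts the classical pathway, which cleaves C4 and then C3 so that their fragments attach to a surface through a thioester bond. Factor B and properdin serve the alternative pathway, and the small fragments C3a and C5a act on leukocytes through their own receptors. The liver makes most circulating complement, whereas C1q is made largely by macrophages and dendritic cells, and macrophages of many tissues transcribe it at a high level.

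Libraries held between 4431184 and 8760679 counted reads, and 8793 genes passed the low-count filter and were tested. Levels are given as CPM, the reads of a gene scaled to the size of its library, with TMM as the correction for composition, and 3 counts correspond to 0.354 to 0.633 CPM. A gene was called when the edgeR quasi-likelihood test gave a Benjamini-Hochberg adjusted p of at most 0.05 with a log2 fold change of at least 1.5 in size. The spread was wide, with a common biological coefficient of variation of 1.26. Of 10 macrophage markers all 10 had counts. Their summed level was 4205 CPM in Ptgs-competent replicate 3 and lay between 11517 and 15655 CPM in the other 5 libraries, so this library stood apart, and it held the lowest CPM of 6 of the 8 tested members. Of 10 melanoma markers, 8, among them Mlana, Pmel, Tyr and Dct, had 0 counts in all 6 libraries. The other two had reads, Gpnmb at 35.1 to 98.5 CPM over all libraries, and Mitf at 1.89, 0 and 0.633 CPM in the Ptgs-competent and 10.5, 43.8 and 18.0 CPM in the Ptgs-deficient replicates. Whether this melanoma line transcribes the 8 markers was not examined, so their 0 counts do not show that tumor-cell RNA was absent. In bulk RNA of this kind, fewer cells of a type and less RNA per cell cannot be told apart.

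C4b was the 1 of 8 tested members that was called, and it rose about 17.7-fold in TAMs from Ptgs-deficient tumors (log2 fold change 4.14 ± 0.50, SE). Calls of higher expression made up 0.159% of all tested genes. The 3 C1q chains were each about 2-fold higher (1.95-fold, 2.12-fold and 2.34-fold) with no overlap between groups, but none was called. C3ar1 did not overlap either, Cfp and C5ar1 overlapped, C3 had a lower mean in the Ptgs-deficient group with overlap, and Cfb had no counts in any library. Of the 8 tested members, 7 had a log2 fold change above 0 against 50.7% of all tested genes. Among the 7 was C5ar1, at 0.01 ± 0.59 (SE), whose sign changed under some alternatives. The median over the 8 was 0.92 against 0.02 over all tested genes. For 5 members every Ptgs-deficient library lay above every Ptgs-competent library, which held for 11.2% of all tested genes.

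**Figure D1:**
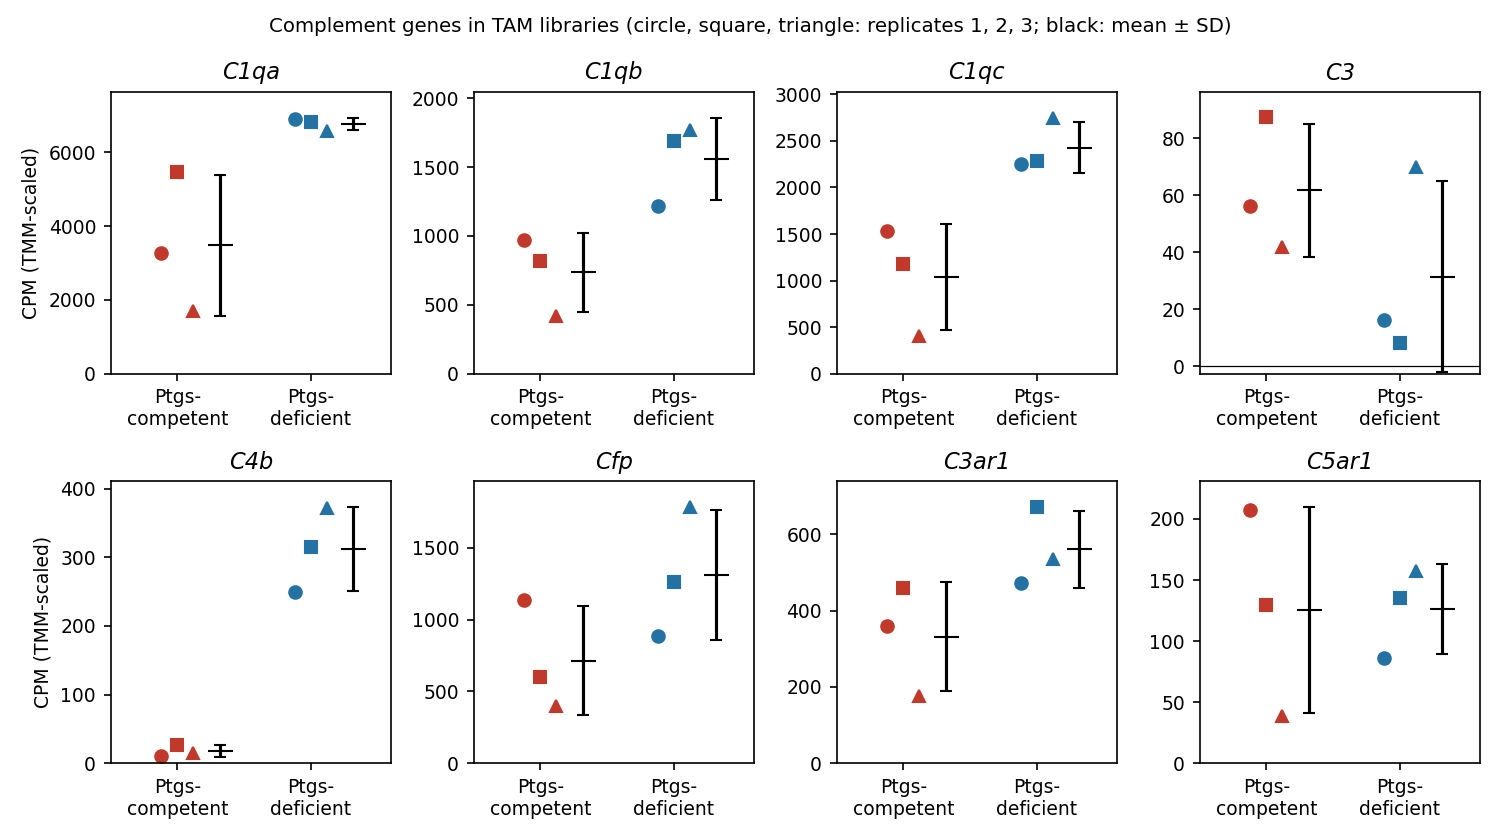
CPM of the 8 complement members with counts in each library, on linear axes, for Ptgs-competent (red) and Ptgs-deficient (blue) tumors; circles, squares and triangles are replicates 1, 2 and 3, and black bars are the mean ± SD (n = 3), which for C3 extends below 0. C4b lies between 11.1 and 26.9 CPM in the Ptgs-competent and between 249 and 372 CPM in the Ptgs-deficient libraries, and C5ar1 overlaps.

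C1qa, C1qb and C1qc encode the A, B and C chains of C1q. They lie side by side on the minus strand of chromosome 4 (GRCm38), C1qb (ENSMUSG00000036905) at chr4:136880129-136886187, C1qc (ENSMUSG00000036896) at chr4:136889804-136893065 and C1qa (ENSMUSG00000036887) at chr4:136895917-136898803. The 250 bases before the RefSeq start of C1qb and of C1qc (GRCm38.p6, minus strand, chr4:136886201-136886450 and chr4:136892915-136893164) are shown because these neighbouring genes had similar patterns over the libraries. The part of the C1qc window nearest the start lies inside the GENCODE model of the gene, which begins further upstream. In the windows printed here and further on, capitals mark matches to the motifs named in the next paragraph, and these 2 windows hold none.
C1qb: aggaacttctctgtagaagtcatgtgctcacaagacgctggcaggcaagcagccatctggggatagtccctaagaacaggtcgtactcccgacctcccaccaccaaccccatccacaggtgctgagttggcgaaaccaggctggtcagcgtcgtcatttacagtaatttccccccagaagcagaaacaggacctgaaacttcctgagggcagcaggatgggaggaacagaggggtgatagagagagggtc
C1qc: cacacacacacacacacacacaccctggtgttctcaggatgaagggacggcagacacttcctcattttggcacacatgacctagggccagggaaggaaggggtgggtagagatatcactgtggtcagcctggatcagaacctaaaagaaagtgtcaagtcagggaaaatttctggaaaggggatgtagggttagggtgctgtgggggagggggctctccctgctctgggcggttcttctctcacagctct

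Windows were found for 6 of the 9 members (C1qb, C1qc, C3, Cfp, C3ar1 and C5ar1) and were searched on both strands for 5 motifs. The AP-1 site TGACTCA occurred in C3ar1 and in 4.46% of all 32851 RefSeq windows of this length, and the C/EBP site TTGCNNAA in C3 and in 9.56% of all windows. No window held the letters of the interferon-stimulated response element, GAAA followed by any 2 bases and GAAA again (2.98% of all windows), the gamma-activated site TTCNNNGAA (7.02%) or the cyclic AMP response element TGACGTCA (1.55%). None of these motifs contains another. A match is a description of the letters in a window of 250 bases.

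C1qa had 3263, 5471 and 1691 CPM in the Ptgs-competent replicates 1, 2 and 3. It had 6899.7, 6822 and 6581 CPM in the Ptgs-deficient replicates. The Ptgs-deficient libraries were close to one another, with a coefficient of variation of 2.46% against 54.6% in the Ptgs-competent group, and all lay above the highest Ptgs-competent library. The means were 3475 ± 1899 and 6768 ± 166 CPM (SD, n = 3 each). The log2 fold change was 0.96 ± 0.41 (SE), with an adjusted p of 0.526 by the edgeR quasi-likelihood test.

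C1qb had 969, 819 and 418 CPM in the Ptgs-competent and 1220.3, 1691 and 1770.7 CPM in the Ptgs-deficient replicates. The groups did not overlap, and the lowest library was again Ptgs-competent replicate 3. Means of 735 ± 285 and 1561 ± 297 CPM (SD, n = 3 each) gave a log2 fold change of 1.08 ± 0.36 (SE; edgeR adjusted p = 0.350).

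C1qc had 1530.3, 1174 and 411 CPM in the Ptgs-competent and 2253, 2284 and 2749 CPM in the Ptgs-deficient replicates. These groups were separate as well, with means of 1038 ± 572 and 2429 ± 278 CPM (SD, n = 3 each). The log2 fold change was 1.22 ± 0.44 (SE; edgeR adjusted p = 0.376). The unadjusted quasi-likelihood p was 0.0435 for C1qa, 0.0140 for C1qb and 0.0192 for C1qc. Together with C4b, 4 of 8 tested members were under an unadjusted p of 0.05, against 8.83% of all tested genes.

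The 3 chains together took 0.551%, 0.750% and 0.270% of all reads in the Ptgs-competent replicates and 1.09%, 1.05% and 1.06% in the Ptgs-deficient replicates. As a mean this was 0.524% ± 0.242 against 1.07% ± 0.0229 (SD, n = 3 each), so the Ptgs-deficient pools were nearly alike and the Ptgs-competent pools were not. The balance of the chains overlapped between the groups. C1qa made up 65.7% ± 8.43 of the reads of the trio in the Ptgs-competent and 63.0% ± 3.62 in the Ptgs-deficient group, C1qb 14.8% ± 3.31 and 14.5% ± 2.34, and C1qc 19.5% ± 6.09 and 22.5% ± 1.94 (SD, n = 3 each).

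Part of the size of the C1q difference came with the Ptgs-competent replicate 3. Without it the log2 fold changes were 0.69 for C1qa, 0.85 for C1qb and 0.89 for C1qc, with edgeR adjusted p-values of 0.525, 0.381 and 0.325. The direction held under all 14 alternatives, over which the log2 fold change ranged from 0.69 to 1.44 for C1qa, from 0.85 to 1.33 for C1qb and from 0.89 to 1.61 for C1qc. The adjusted p depended on the test, the low-count filter and the libraries kept. It ranged from 0.0166 to 0.809 for C1qa, from 0.0453 to 0.734 for C1qb and from 0.0269 to 0.736 for C1qc, and in the alternatives where it was at most 0.05 the fold change stayed under the size needed for a call.

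The gene most like the mean of the C1q chains in its pattern over the 6 libraries was Emr1, which encodes F4/80, a protein used in the sort gate. Likeness was measured as the root mean square difference of mean-centred log2 CPM over the 6 libraries, and it was 0.12 for Emr1. Gtf3c6 (0.13), Ifitm3 (0.15), the C-type lectin gene Clec4a3 (0.15) and the syndecan gene Sdc3 (0.15) came next. Emr1 had 270, 278 and 85.0 CPM in the Ptgs-competent and 437, 427 and 504 CPM in the Ptgs-deficient replicates. This list is a description, and no test was made of it.

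Because Emr1 followed C1q so closely, the members were also expressed per Emr1 read of the same library, a ratio chosen after the values were seen. The C1q chains summed to 25.9 ± 4.21 reads per Emr1 read in the Ptgs-competent and 23.7 ± 1.62 in the Ptgs-deficient group (SD, n = 3 each), with overlap, which follows from how Emr1 was picked. Over all 10 macrophage markers as the denominator, the summed C1q reads overlapped between groups for 7 and did not for 3, Mertk and Lyz2 among them, where they were higher in the Ptgs-deficient group. The log2 ratio of the means ran from -0.85 to 1.16 over the 10 markers. The macrophage marker sum itself was 4205 to 12357 CPM in the Ptgs-competent and 11586 to 15655 CPM in the Ptgs-deficient group. Its part in the C1q result was not tested.

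**Figure D2:**
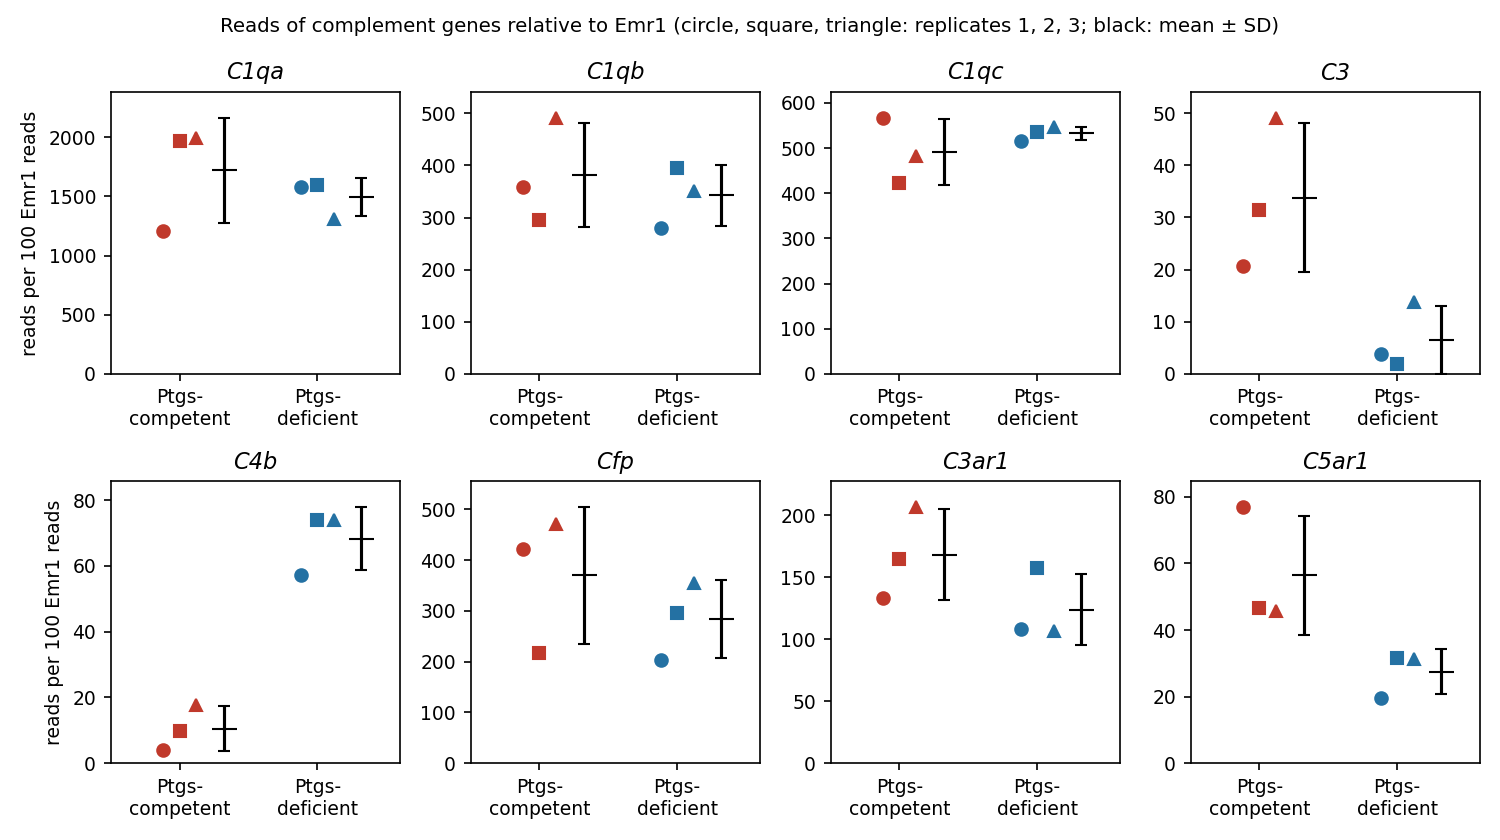
Reads of each tested complement member per 100 Emr1 reads of the same library, on linear axes, for Ptgs-competent (red) and Ptgs-deficient (blue) tumors; black bars are the mean ± SD (n = 3). The C1q chains, Cfp and C3ar1 overlap between groups, C4b lies between 4.10 and 17.6 in the Ptgs-competent and between 57.1 and 73.9 in the Ptgs-deficient libraries, and C3 and C5ar1 lie lower in the Ptgs-deficient libraries.

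C4b and C3 encode the thioester components that become covalently attached to surfaces. C4b (ENSMUSG00000073418, minus strand, chr17:34728380-34743882 in GRCm38) encodes complement C4, which C1s cleaves in the classical pathway. It had 70, 166 and 71 reads in the Ptgs-competent replicates and 1377, 2675 and 1815 reads in the Ptgs-deficient replicates. As CPM these were 11.1, 26.9 and 15.0 against 249, 315 and 372. The lowest Ptgs-deficient library thus stood far above the highest Ptgs-competent one. The means were 17.7 ± 8.28 and 312 ± 61.4 CPM (SD, n = 3 each), and the log2 fold change of 4.14 ± 0.50 (SE) had an adjusted p of 0.0140 by the edgeR quasi-likelihood test.

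The C4b difference kept its size under the alternatives, whereas its call held under some of them. Its log2 fold change ranged from 3.89 to 4.58 over the 14 alternatives. The call was lost when Ptgs-competent replicate 1 was left out (edgeR adjusted p = 0.0568) and when Ptgs-deficient replicate 1 (0.0637), 2 (0.113) or 3 (0.0941) was left out, and under limma voom (0.0697). It held without Ptgs-competent replicate 2 or 3.

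C4b has a close neighbour in C4a. Within the last 500 bases of the C4b transcript, where reads of a 3′ library fall, 38.1% of all runs of 50 bases also occur in C4a, and how reads that fit both genes were assigned is not stated. C4a had 0 counts in 5 libraries and 5 counts in Ptgs-deficient replicate 3. The C4b values are uncertain to that degree.

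C4b was also higher relative to other members. There were 0.339, 0.493 and 0.886 C4b reads per 100 C1qa reads in the Ptgs-competent and 3.61, 4.62 and 5.65 in the Ptgs-deficient replicates. Per 100 Emr1 reads it was 10.5 ± 6.79 against 68.3 ± 9.65 (SD, n = 3 each), without overlap. Higher reads per Emr1 read without overlap were seen for 3.66% of tested genes. With each of the 10 macrophage markers as the denominator, C4b was higher without overlap for 9 and overlapped for Cd68, and the log2 ratio of the means ran from 1.61 to 4.25.

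The genes most like C4b in pattern over the 6 libraries were Cep192 (root mean square difference 0.31), the C-type lectin gene Clec10a (0.35), the chemokine gene Ccl8 (0.37), Lefty1 (0.42) and Retnla (0.44), a gene induced by interleukin 4 in macrophages. Cep192, at 0 to 13.5 CPM, and Lefty1, at 0.158 to 12.7 CPM, had few reads. Clec10a had 71.7, 118 and 139 CPM in the Ptgs-competent and 1146, 1912 and 1993 CPM in the Ptgs-deficient replicates, so it too did not overlap. Markers of tissue-resident macrophages were also higher in the Ptgs-deficient libraries, although 1 of 10 (Cd209g) was called. All 10 of 10 (among them Lyve1, Folr2, Timd4 and Cd163) had counts, and their sum, of which F13a1 made up the largest part (692 to 1943 CPM and 3658 to 3970.3 CPM), was 1182 to 2180 CPM in the Ptgs-competent and 5737 to 7380 CPM in the Ptgs-deficient group. The sum of 8 monocyte markers, all with counts, was 326 to 692 CPM against 1608 to 2594 CPM. That sum was carried by Plac8, Ccr2 and Ly6c2, of which Plac8 was called (edgeR adjusted p = 0.0230). Vcan lay lower without overlap (26.4, 84.2 and 30.4 CPM against 0, 17.0 and 0 CPM), and Hp, F10 and Chi3l3 overlapped. Their part in the C4b result was not tested.

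**Figure D3:**
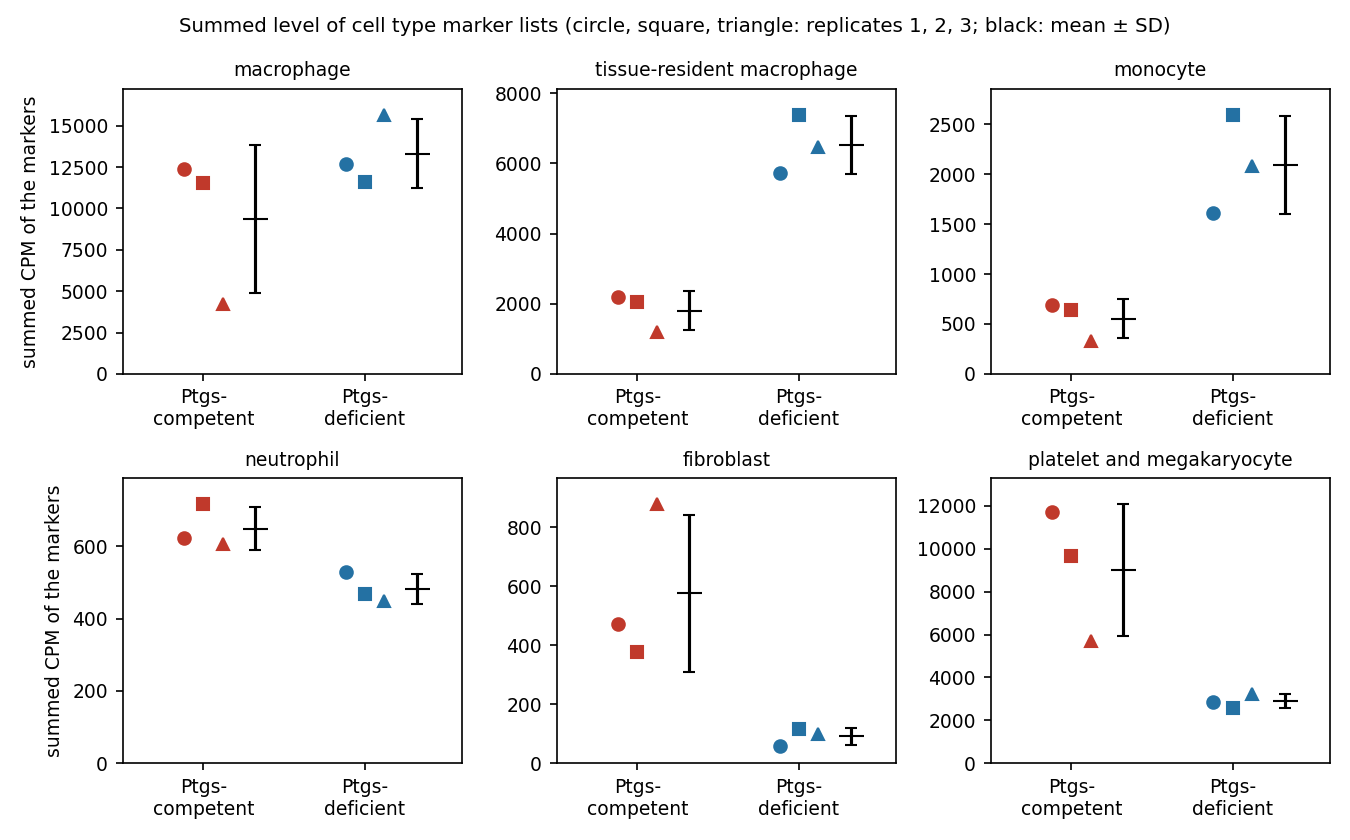
Summed CPM of 6 cell type marker lists in each library, on linear axes, for Ptgs-competent (red) and Ptgs-deficient (blue) tumors; black bars are the mean ± SD (n = 3). The tissue-resident macrophage and monocyte sums are higher, and the neutrophil, fibroblast and platelet sums lower, in every Ptgs-deficient library, although the monocyte marker Vcan is lower and the neutrophil marker Retnlg higher in all of these libraries, and the macrophage sum is lowest at 4205 CPM in Ptgs-competent replicate 3.

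C3 (ENSMUSG00000024164, minus strand, chr17:57203970-57228136 in GRCm38) encodes the component on which all activation pathways converge. The 250 bases before its RefSeq start (GRCm38.p6, minus strand, chr17:57228137-57228386) are printed as a contrast to the C1q windows, since C3 had the pattern farthest from C4b (root mean square difference 2.96). Capitals mark a C/EBP site at bases -45 to -38 from the start.
C3: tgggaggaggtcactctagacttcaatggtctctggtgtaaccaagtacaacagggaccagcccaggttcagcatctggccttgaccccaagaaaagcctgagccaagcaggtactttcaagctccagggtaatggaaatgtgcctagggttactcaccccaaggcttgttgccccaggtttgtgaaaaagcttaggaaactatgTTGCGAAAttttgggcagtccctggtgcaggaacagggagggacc

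C3 had 56.0, 87.5 and 41.8 CPM in the Ptgs-competent and 16.3, 8.13 and 69.9 CPM in the Ptgs-deficient replicates. Ptgs-deficient replicates 1 and 2 were below every Ptgs-competent library, whereas Ptgs-deficient replicate 3 lay among them. Means were 61.8 ± 23.4 and 31.4 ± 33.6 CPM (SD, n = 3 each), and the log2 fold change was -0.98 ± 0.97 (SE; edgeR adjusted p = 0.9995). Without Ptgs-deficient replicate 3 the Ptgs-deficient mean was 12.2 CPM and the log2 fold change -2.34, still not called.

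Relative to C3, C4b reads were 0.197, 0.308 and 0.359 per C3 read in the Ptgs-competent and 15.3, 38.8 and 5.32 in the Ptgs-deficient replicates. The ratio was higher in every Ptgs-deficient library than in any Ptgs-competent library. Fibroblasts are another known source of C3. The sum of 10 fibroblast markers, 9 of which had counts (Lum was at 0), was 377 to 878 CPM in the Ptgs-competent and 59.4 to 115 CPM in the Ptgs-deficient group, and its part in the C3 values was not tested. Sparc carried much of that difference (124 to 587 CPM against 17.4 to 36.5 CPM). Col1a2 and Col3a1 were also lower in every Ptgs-deficient library than in any Ptgs-competent library. In contrast, Col1a1, Dcn and Pdpn overlapped, and Dpt and Mfap5 had reads in a Ptgs-deficient library alone.

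Cfb and Cfp encode the alternative pathway members. Cfb (ENSMUSG00000090231, minus strand, chr17:34856374-34862518 in GRCm38) encodes factor B, the protease of the alternative C3 convertase. It had 0 reads in all 6 libraries, which allows up to 0.354 to 0.633 CPM by counting error, and was not tested. A readthrough gene on the same strand, Gm20547, covers 79.5% of the exon bases of Cfb and 77.6% of its last 500 bases, and it also had 0 reads. Reads that fall in both genes can go uncounted, and the setting used is not given in the sources used here, so a 0 here does not show that Cfb was not transcribed.

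Cfp (ENSMUSG00000001128, minus strand, chrX:20925454-20931555 in GRCm38) encodes properdin, which stabilises the alternative C3 convertase. It had 1137, 603 and 401 CPM in the Ptgs-competent and 884, 1265 and 1785 CPM in the Ptgs-deficient replicates. Ptgs-competent replicate 1 lay above Ptgs-deficient replicate 1, so the groups overlapped. Means were 713 ± 380 and 1312 ± 452 CPM (SD, n = 3 each), and the log2 fold change of 0.87 ± 0.43 (SE) was not called (edgeR adjusted p = 0.668). Per 100 Emr1 reads Cfp was 370 ± 135 and 284 ± 76.6 (SD, n = 3 each), again with overlap.

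C3ar1 and C5ar1 encode the receptors for C3a and C5a on myeloid cells. C3ar1 (ENSMUSG00000040552, minus strand, chr6:122847138-122856161 in GRCm38) had the pattern closest to that of C1qa among the members (root mean square difference 0.24), and its upstream window (GRCm38.p6, minus strand, chr6:122856158-122856407) is shown for that reason. Capitals mark an AP-1 site at bases -22 to -16 from the start.
C3ar1: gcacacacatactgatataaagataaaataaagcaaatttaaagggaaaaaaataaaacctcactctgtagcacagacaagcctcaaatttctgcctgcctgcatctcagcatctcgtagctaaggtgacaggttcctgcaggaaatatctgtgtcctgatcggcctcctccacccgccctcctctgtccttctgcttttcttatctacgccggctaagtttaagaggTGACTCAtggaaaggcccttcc

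C3ar1 had 360, 459 and 176 CPM in the Ptgs-competent and 474, 672 and 536 CPM in the Ptgs-deficient replicates. The groups did not overlap, but the gap between the highest Ptgs-competent and the lowest Ptgs-deficient library was narrow. Means were 331 ± 144 and 560.3 ± 101 CPM (SD, n = 3 each), and the log2 fold change was 0.75 ± 0.39 (SE; edgeR adjusted p = 0.729). Without Ptgs-competent replicate 3 it was 0.51.

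C5ar1 (ENSMUSG00000049130, minus strand, chr7:16246743-16259540 in GRCm38) had 208, 130 and 38.8 CPM in the Ptgs-competent and 85.8, 135 and 158 CPM in the Ptgs-deficient replicates. Both the highest and the lowest library were Ptgs-competent, so the groups overlapped entirely. Means were 125 ± 84.5 and 126 ± 36.7 CPM (SD, n = 3 each), and the log2 fold change of 0.01 ± 0.59 (SE; edgeR adjusted p = 0.9995) turned negative under DESeq2 size factors, under the DESeq2 test and when Ptgs-competent replicate 3 or Ptgs-deficient replicate 2 or 3 was left out. Per C5ar1 read there were 3.27 ± 1.42 C3ar1 reads in the Ptgs-competent and 4.63 ± 1.10 in the Ptgs-deficient group (SD, n = 3 each), with overlap.

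Per Emr1 read, C3 and C5ar1 were lower in every Ptgs-deficient library. Per 100 Emr1 reads C3 was 33.8 ± 14.3 and 6.51 ± 6.45, and C5ar1 was 56.4 ± 17.8 and 27.5 ± 6.80 (SD, n = 3 each). Lower reads per Emr1 read without overlap were seen for 25.2% of tested genes, which 2 of 8 members matches closely. With each of the 9 other macrophage markers as the denominator, C3 was lower without overlap for 3 (Itgam, Lyz2 and Mrc1), and C5ar1 overlapped for all 9.

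**Figure D4:**
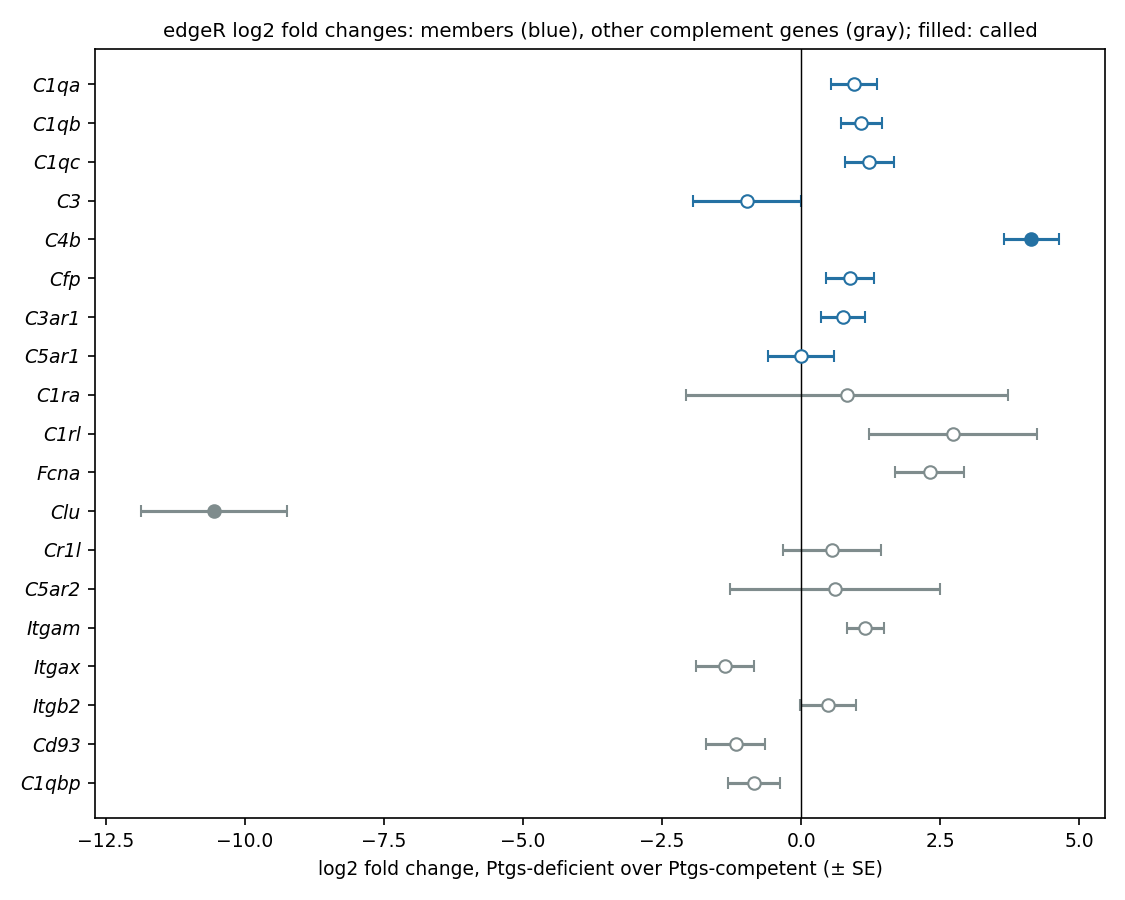
Log2 fold change (Ptgs-deficient minus Ptgs-competent) with its standard error from the edgeR quasi-likelihood fit, for the 8 tested members and other complement genes that were tested. C4b at 4.14 and Clu at -10.55 are the called genes; the Clu value rests on 2 reads in the Ptgs-deficient group and depends on the prior count of the fit.

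Few genes of the rest of the cascade passed the test. Of 47 other complement genes, 25 had 0 reads in all libraries, 12 were tested, and 1 was called, which was lower in the Ptgs-deficient group; lower calls made up 0.0569% of all tested genes. Their median log2 fold change was 0.58, with 8 of 12 above 0. Without overlap, 3 were higher and 2 lower, against 11.2% and 7.92% of all tested genes.

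Of the 16 other genes that start the classical and lectin pathways, 3 were tested (C1ra, C1rl and Fcna), none was called, and 11 were at 0 throughout, among them C1s and Masp1, which encode initiating proteases. Fcna, which encodes the lectin-pathway recognition protein ficolin A, had 18.3, 73.4 and 104 CPM in the Ptgs-competent and 191, 464 and 322 CPM in the Ptgs-deficient replicates. Its groups did not overlap, and its log2 fold change of 2.31 ± 0.63 (SE) was not called (edgeR adjusted p = 0.218), although other tests did call it, namely the edgeR likelihood ratio test (2.74% of tested genes called), DESeq2 (3.73%) and limma voom (1.4%). Fcna also belongs to the tissue-resident macrophage markers. C1rl, which encodes a C1r-like protease, had 25.4, 2.11 and 0.211 CPM in the Ptgs-competent and 101, 41.2 and 43.0 CPM in the Ptgs-deficient replicates, without overlap (log2 fold change 2.74 ± 1.51, SE; edgeR adjusted p = 0.779). Its log2 fold change ranged from 2.19 to 5.69 over the 14 alternatives and was highest without Ptgs-competent replicate 1.

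Terminal pathway genes mostly had no reads, with 6 of 7 at 0 reads throughout, Hc (complement C5) among them. The exception was C6, with 206 and 158 reads in Ptgs-deficient replicates 1 and 2 and 0 in the other libraries. Cfd, the protease that activates factor B, had reads in 1 library.

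Of 8 soluble regulators, 2 were tested and 5 were at 0 throughout. Clu, which encodes the terminal-pathway inhibitor clusterin, fell in the Ptgs-deficient group. It had 294, 522 and 2054 reads in the Ptgs-competent and 0, 1 and 1 reads in the Ptgs-deficient replicates (edgeR adjusted p = 0.0159). Pooled over libraries, the Ptgs-competent level was 1572 times the Ptgs-deficient level (exact Poisson 95% interval 435 to 12989, counting error only). Without Ptgs-competent replicate 3, which held most of these reads, the ratio was 617 (170.2 to 5100.4). The Clu call was lost without that library (edgeR adjusted p = 0.113), without Ptgs-competent replicate 1 (0.0568) and without Ptgs-deficient replicate 1 (0.1202), 2 (0.125) or 3 (0.0896), and it held without Ptgs-competent replicate 2. The fibroblast marker sum, given with C3, was also highest in that library, mostly through Sparc (587 CPM). Col1a1 (48.1, 11.5 and 121 CPM in the Ptgs-competent replicates) and Col1a2 (15.2, 45.4 and 91.1 CPM) were highest there as well. Pdpn, Dcn and Col3a1 were lowest there among the Ptgs-competent libraries. The part of the fibroblast sum in the Clu result was not tested. Of 7 membrane regulators 1 was tested and none was called. Cd59a had reads in the Ptgs-deficient libraries alone (34, 14 and 17), and Cd59b had reads in Ptgs-competent replicates 2 and 3 alone (76 and 221).

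Among 8 other receptors 6 were tested, 3 with a log2 fold change above 0 and 3 below, and none was called. Itgam, which encodes CD11b, the alpha chain of complement receptor 3 and a protein of the sort gate, had 598, 499 and 302 CPM in the Ptgs-competent and 885, 1138 and 1105 CPM in the Ptgs-deficient replicates, without overlap (log2 fold change 1.16 ± 0.34, SE; edgeR adjusted p = 0.261). Itgax, which encodes CD11c, the alpha chain of complement receptor 4, had 340.3, 165 and 137 CPM in the Ptgs-competent and 133, 55.9 and 62.1 CPM in the Ptgs-deficient replicates. Its groups were just separate under TMM scaling and overlapped under upper quartile scaling (log2 fold change -1.36 ± 0.52, SE; edgeR adjusted p = 0.406). Itgb2, the beta chain that both receptors share, overlapped (log2 fold change 0.48 ± 0.50, SE). Vsig4, the complement receptor of the immunoglobulin superfamily, had 34 reads in Ptgs-deficient replicate 3 and 0 in the other libraries.

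Several marker lists had a lower sum in the Ptgs-deficient group. The sum of 12 neutrophil markers was 607 to 716 CPM in the Ptgs-competent and 447 to 527 CPM in the Ptgs-deficient group, with the defining genes Ly6g, Elane and Mpo at 0. S100a8 and S100a9 carried that difference, whereas Retnlg was higher without overlap (20.0, 59.2 and 15.8 CPM against 122, 112 and 179 CPM) and Csf3r overlapped. The sum of 6 platelet markers was 5685 to 11709 CPM against 2591 to 3219 CPM, with Gp9, Gp1bb and Gp5 at 0. Nearly all of it was Pf4 (5367 to 10747 CPM against 2585 to 3217 CPM), and Itga2b had reads in Ptgs-competent replicate 3 alone. Ppbp was called lower, with 962, 598 and 301 CPM against 20.8, 6.48 and 2.05 CPM (edgeR adjusted p = 0.0324). The sum of 8 endothelial markers was 103 to 195 CPM against 36.9 to 71.3 CPM, with Cdh5, Tie1, Emcn and Cldn5 at 0. Pecam1 carried it (87.1 to 195 CPM against 15.2 to 64.6 CPM), Kdr overlapped, and Vwf had 3, 0 and 0 reads against 37, 126 and 2. The lymphocyte sum went the other way without overlap, from 0.158, 0 and 0 CPM in the Ptgs-competent to 14.8, 23.5 and 88.8 CPM in the Ptgs-deficient replicates. It came mostly from Ighm, with Cd3e and Cd4 among the genes at 0. Sums for dendritic cells (0 to 16.4 against 11.2 to 63.2 CPM) and NK cells (2.05 to 2.32 against 0.615 to 21.7 CPM) overlapped, with Zbtb46 and Ncr1 at 0. Their part in the complement values was not tested.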

How the data were processed

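Three-prime RNA libraries (QuantSeq FWD, 800 pg of RNA) of 6 sorted TAM pools were analysed. Per the study's methods, the authors trimmed reads with BBDUK, fqtrim and cutadapt, aligned them to GRCm38 with STAR and counted them per gene with featureCounts. Tool versions, strand setting and treatment of shared reads are not given in the sources used here. The deposited values are raw counts, without normalization. Each transcript yields reads near its 3′ end, so counts do not scale with length, and levels were not ranked between genes.

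The counts were tested with edgeR 4.0.16 under R 4.3.3, using filterByExpr (minimum count 10), TMM and the quasi-likelihood test on the group, 3 libraries each, with Benjamini-Hochberg adjustment over 8793 genes. A standard error is the size of the log2 fold change over the root of the F statistic. The pipeline was tested on simulated data. The members and gene lists were chosen with earlier results of these data known. Other complement genes that were tested were named in the text or the plot, with values for those called or without overlap in CPM; further names and values (Itgb2, Vsig4, C4a, C6, Cfd, Cd59a, Cd59b and those at 0) were added after their values were seen. For C1q and C4b the 5 genes of most similar pattern (prior count 2) were named. Alternatives were 2 other scalings, 2 other filters, the likelihood ratio test, DESeq2 1.42.0, limma 3.58.1 voom, a replicate block and leaving out each library. Positions came from GENCODE and promoter windows from RefSeq (GRCm38.p6). Groups came from the labels. Some genes that enter the counts and sums are not reported here by name. Same-numbered samples showed no sign of pairing, which 3 libraries per group cannot exclude.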

Additional observations from a re-analysis of the deposited data

How the results depend on the processing

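Over all genes, 19 were called; upper quartile scaling gave 20, no low-count filter 252, the likelihood ratio test 241, DESeq2 328, limma voom 123 and the replicate block 77. Leaving out 1 library gave 0 to 25 calls. The 0 was without Ptgs-competent replicate 1, where 1231 genes had an unadjusted edgeR p under 0.05. The median log2 fold change of all genes was 0.02 in the main analysis, 0.39 under voom and 0.26 under the block. No pairing by replicate number was seen (correlations of same-numbered deviations -0.05, -0.02 and -0.02). With 3 libraries per group these values cannot exclude it, and the labels do not state it. The replicate block is given here alone, and with it C4b stayed called. Of the members, 1 (C4b) was called under each scaling, each filter, the likelihood ratio test and DESeq2, 0 under voom, and 0 to 1 when a library was left out. Of the other complement genes, 1 (Clu) was called in the main analysis, 2 (Clu and Fcna) under no filter, the likelihood ratio test, DESeq2, voom and the replicate block, and 0 to 1 when a library was left out. The log2 fold change of C5ar1 reversed to -0.0199 under DESeq2 size factors and to -0.0199 under the DESeq2 test, and ranged from -0.38 to 0.58 when a library was left out. The cause was not tested. The fits that left out a library assume that spread is shared by the groups, and fewer samples entered them. No other member changed direction under these alternatives. Depth limits Cfb and the other genes at 0, and the smallest library, Ptgs-competent replicate 3, had 4431184 reads.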
